A study of Homo sapiens with 18 samples.

Results

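Knockout of PIK3R1 was compared with a non-targeting control in RPMI-8402 cells that had received CB-103 for 24 h. RPMI-8402 is an established human line of T-cell acute lymphoblastic leukaemia (T-ALL). The comparison was made over every gene expressed in the series, which were 17346 of the 58735 genes in the deposited table, and over 6 of its 18 libraries. The 3 KO libraries came from PIK3R1 knockout cells with CB-103, and the 3 NT libraries from cells with a non-targeting control, labelled wild type, with CB-103. Knockout and control cells were also given the vehicle DMSO or the gamma-secretase inhibitor LY3039278 (GSI) for 24 h, with 3 libraries in each group. The labels describe 1 knockout line and 1 control line and do not say whether the knockout was a clone or a pool, so the genotype and the line cannot be told apart. They give no doses, and whether the replicates were grown separately is not stated. The p-values therefore measure the spread between these libraries, which may be technical.

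PIK3R1 encodes p85-alpha, which binds and regulates the class I phosphoinositide 3-kinases (PI3K). The regulatory subunit stabilises the catalytic subunit, holds it inactive and brings it to activated receptors, after which the lipid product recruits the kinase AKT and, through it, mTOR and the FOXO factors. NOTCH1 is the receptor most often activated by mutation in T-ALL. Its cleaved intracellular domain joins the DNA-binding factor RBPJ and a MAML coactivator to switch on targets such as HES1, DTX1 and MYC. CB-103 is a small molecule that blocks this transcription complex, while gamma-secretase inhibitors block the cleavage of the receptor.

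Libraries held between 30416183 and 43558387 estimated reads. Levels are library-scaled counts (CPM). Fold changes are log2 values of KO over NT, given with a standard error (SE), and a gene was called at an edgeR adjusted p under 0.05. T-lineage markers summed to 1410 to 1490 CPM in the KO CB-103 libraries and to 1210 to 1370 CPM in the NT CB-103 libraries. The mitochondrially encoded genes held 1.89% to 2.69% of the reads in the KO CB-103 libraries and 4.73% to 5.47% in the NT CB-103 libraries, and the part of this gap in other results was not tested.

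The targeted gene was read first. PIK3R1 (chr5:68215720-68301821, plus strand, hg38) stood at 25.9, 29.9 and 27.6 CPM in the KO CB-103 libraries and at 30.9, 33.5 and 29 CPM in the NT CB-103 libraries. The groups overlapped, and the difference did not pass the threshold (-0.16 ± 0.09 SE, n = 3 each, adjusted p = 0.17). When the gene value was the plain sum of the transcript estimates, the difference was -0.33 and was called (adjusted p = 7.6e-05). The transcript PIK3R1-211, which spans the gene, stood at 6.05, 5.72 and 5.76 TPM, a level per transcript length, in KO CB-103 and at 7.07, 8.06 and 6.71 TPM in NT CB-103, without overlap. A shorter coding transcript, PIK3R1-215, went the other way, at 0, 0.959 and 0.498 TPM in KO CB-103 and at 0 in every NT CB-103 library. Under DMSO the KO libraries stood at 23.1, 21.4 and 23.2 CPM and the NT libraries at 44.3, 45.5 and 42.5 CPM. The genotype difference was 0.81 ± 0.13 more positive under CB-103 than under DMSO (adjusted p = 0.00034). Messenger RNA does not check the label of a knockout that leaves the transcript in place, and protein was not measured here.

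Genotype was accompanied by many small differences under CB-103. Of the 17346 genes tested, 6412 were called (37.0%), with 3547 higher (20.4%) and 2865 lower (16.5%) in KO cells. At least 2-fold differences accounted for 926 of them (5.34%), 560 higher and 366 lower, and 4291 of the called genes differed by under 1.5-fold. The median log2 fold change over all genes tested was -0.001. In 7777 genes (44.8%) the 3 KO libraries lay wholly above or wholly below the 3 NT libraries. Protein-coding genes were called in 43.0% of 13305 cases, and pseudogenes in 18.5% of 894.

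**Figure D1:**
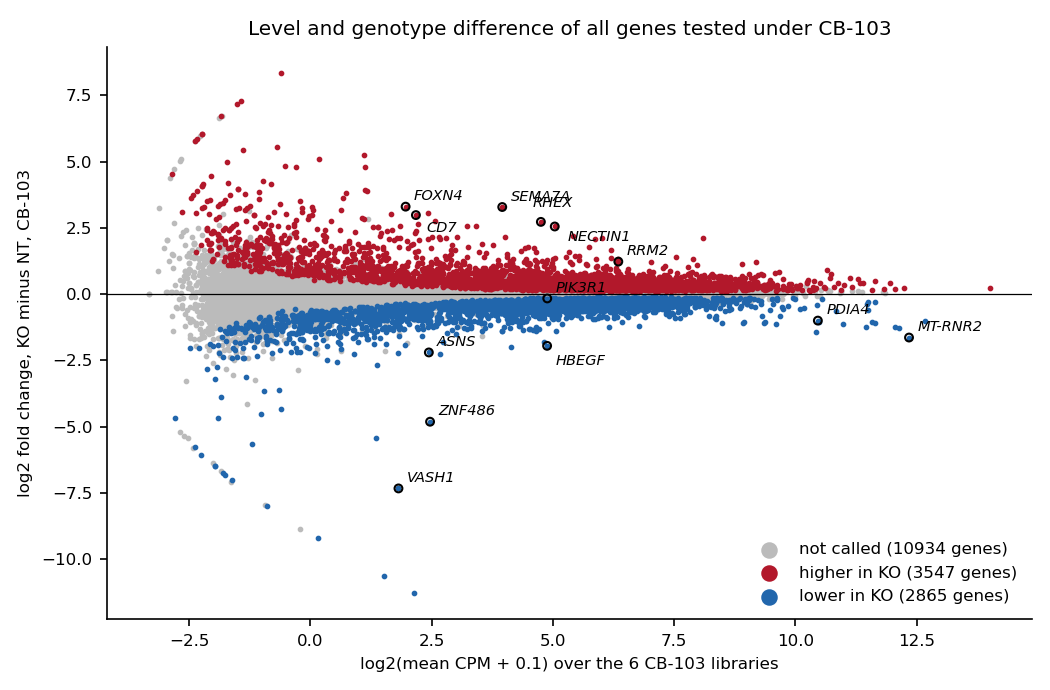
Each point is 1 of the 17346 genes tested, with the mean level over the 6 CB-103 libraries on the horizontal axis (log2 of CPM plus 0.1) and the log2 fold change, KO minus NT, on the vertical axis. Red points are the 3547 genes called higher in KO cells, blue points the 2865 called lower and grey points the rest; most called genes lie close to 0, while SEMA7A at 3.29 and ZNF486 at -4.81 lie far out.

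The 12 largest rises at appreciable level included cell surface proteins and signalling genes. They were taken from called genes that averaged at least 5 CPM in the KO or NT CB-103 group and whose libraries did not overlap, so the lack of overlap among them is no result. SEMA7A (chr15:74409289-74433958), a membrane-anchored semaphorin that binds integrins, stood at 28.9, 26.1 and 29.1 CPM in KO CB-103 and at 3.43, 3.09 and 2.04 CPM in NT CB-103 (3.29 ± 0.14, 9.75-fold, adjusted p = 3.2e-11). CD7 (chr17:82314868-82317602), a surface protein of early T cells used to recognise T-ALL, stood at 7.43, 8.39 and 7.74 CPM in KO CB-103 against 0.911, 1.18 and 0.903 CPM in NT CB-103. CD48, a surface ligand of lymphocyte receptors, stood at 9.38, 10.5 and 10.6 CPM in KO CB-103 against 1.53, 1.62 and 1.31 CPM in NT CB-103. SEMA7A, CD7 and CD48 were 6.82-fold to 9.75-fold higher in KO cells. The adhesion receptor NECTIN1 (chr11:119623408-119729084) rose 5.87-fold, with 59.3, 54.4 and 54.5 CPM in KO CB-103 and 10.3, 10.7 and 7.72 CPM in NT CB-103. RHEX, a membrane protein that takes part in erythropoietin signalling, stood at 43.4, 49.2 and 47.6 CPM in KO CB-103 against 7.07, 8.57 and 5.59 CPM in NT CB-103. Among all genes meeting these conditions, FOXN4, a forkhead transcription factor studied in the developing retina, had the largest rise, 3.30 ± 0.18, at 7.10, 7.25 and 6.36 CPM in KO CB-103 and 0.455, 0.860 and 0.816 CPM in NT CB-103. The corepressor TLE1, whose family mediates repression by HES proteins, rose by 2.55 ± 0.12, and SPRED2, an inhibitor of the RAS-MAPK route, by 2.58 ± 0.15. The others of the 12 were KRT1 (3.08), SLCO2A1 (3.03), TMEM132D (2.66) and CLU (2.59). All 12 were also called higher in KO cells under DMSO and under GSI, so none of these rises was confined to CB-103. That of FOXN4 was larger under both (4.08 under DMSO and 3.89 under GSI), whereas that of KRT1 was smaller (0.86 and 2.49).

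Among the largest falls were genes nearly silent in KO cells. VASH1, which encodes a tubulin carboxypeptidase, stood at 0, 0.0293 and 0.0863 CPM in KO CB-103 and at 6.88, 6.37 and 7.20 CPM in NT CB-103. Its fitted value of -7.32 ± 0.40 depends on the prior count of the fit, because KO reads were almost absent. ZNF486, a zinc finger gene of a large family with similar sequences, stood at 0.270, 0.440 and 0.403 CPM in KO CB-103 against 11.6, 10.4 and 9.44 CPM in NT CB-103 (-4.81 ± 0.21, adjusted p = 4.1e-11). ZNF486 was also lower in KO cells under DMSO (-4.75) and GSI (-5.12). VASH1 reads were likewise almost absent from KO cells under both, at most 0.0573 CPM in a library, against at least 5.89 CPM in NT cells. HBEGF, a ligand of the epidermal growth factor receptor, stood at 12.6, 11.1 and 12.6 CPM in KO CB-103 and at 50.1, 45.8 and 44.2 CPM in NT CB-103 (-1.95 ± 0.08). The flippase ATP11A, which moves phospholipids to the inner membrane leaflet, stood at 7.55, 7.83 and 5.87 CPM in KO CB-103 against 25.4, 32.0 and 26.5 CPM in NT CB-103. ASNS, the enzyme that makes asparagine, stood at 0.899, 2.82 and 2.01 CPM in KO CB-103 and at 9.18, 9.53 and 7.63 CPM in NT CB-103 (-2.20 ± 0.38, adjusted p = 0.00019). The kinase MAP3K21 fell by 2.25 and WWC2, a scaffold of the Hippo route, by 1.59. MDGA1 (-1.93) and the transferrin gene TF (-1.81) were called, but not with plain sums of the transcript estimates, which gave -0.02 and -0.32. RGPD6 (-1.79) has near-identical family members, and BCL2L2 (-1.59), an inhibitor of apoptosis, overlaps a read-through gene, so reads of both may have been divided among copies. The remaining fall of the 12 was MT-RNR2, the large mitochondrial ribosomal RNA (-1.64). HBEGF and ATP11A were lower in KO cells under DMSO (-2.52 and -2.53) and GSI (-2.36 and -2.23) as well. MAP3K21, ASNS, WWC2 and MT-RNR2 were also called lower under both. BCL2L2 was called lower under GSI but not DMSO, and MDGA1, TF and RGPD6 were called under neither.

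**Figure D2:**
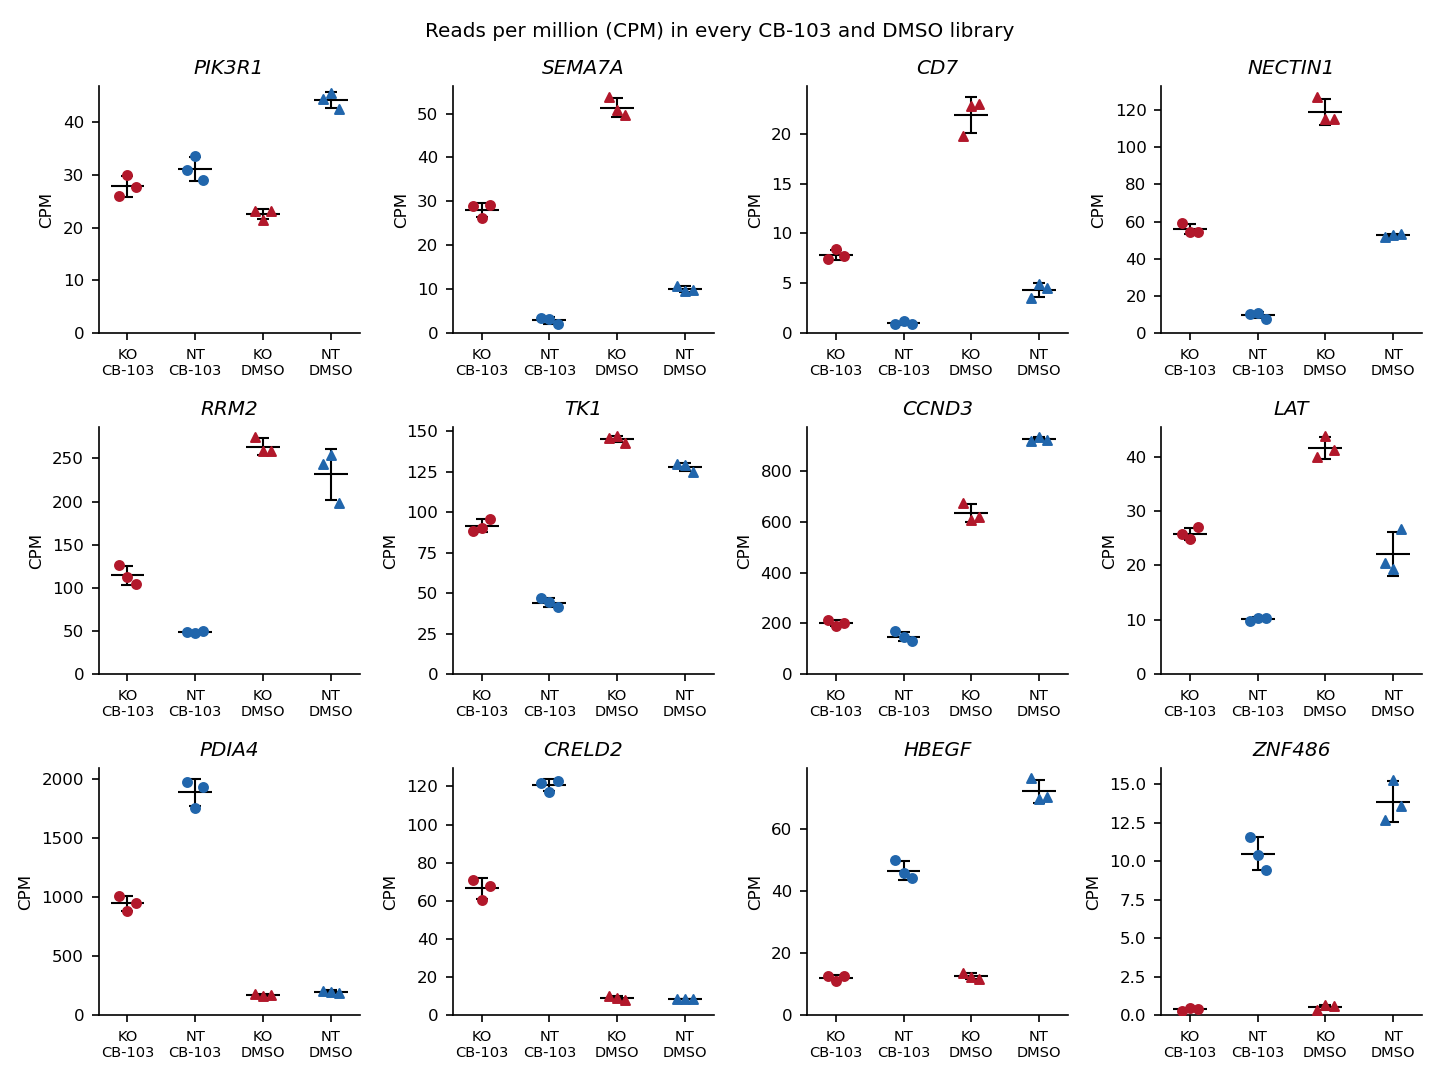
Levels in CPM of 12 genes in every CB-103 library (circles) and DMSO library (triangles), KO in red and NT in blue, with the mean and SD of 3 libraries as black lines and each vertical axis starting at 0. PIK3R1 overlaps between genotypes under CB-103 alone among the 2 treatments shown, CCND3 is higher in KO than NT under CB-103 and lower under DMSO, and PDIA4 and CRELD2 separate by genotype chiefly under CB-103.

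Genes of the G1/S transition and DNA replication rose as a list in KO cells under CB-103. Of 28 tested, 25 rose (89.3%, against 20.4% of all genes tested) and CDC6 fell, with a median of 0.58 against -0.001 over all genes tested. Summed over the list, the KO CB-103 libraries held 4280 to 4640 CPM and the NT CB-103 libraries 3100 to 3420 CPM. RRM2, the small subunit of ribonucleotide reductase, stood at 126, 113 and 104 CPM in KO CB-103 and at 49.0, 47.1 and 50.3 CPM in NT CB-103 (1.23 ± 0.09, adjusted p = 1e-08). TK1, the thymidine kinase of dividing cells, stood at 88.7, 90.2 and 96.1 CPM in KO CB-103 against 46.7, 44.6 and 41.2 CPM in NT CB-103. UHRF1, which maintains DNA methylation behind the replication fork, stood at 228, 198 and 220 CPM in KO CB-103 and at 115, 102 and 91.3 CPM in NT CB-103. These genes, named for the size of their called rise, were 2.08-fold to 2.34-fold higher in KO cells. The replication clamp PCNA averaged 223 ± 11.7 CPM in KO CB-103 and 121 ± 11.2 CPM in NT CB-103 (SD, n = 3 each). CDC6, a loader of the replicative helicase, averaged 159 ± 18.5 CPM in KO CB-103 and 239 ± 12.4 CPM in NT CB-103 and fell by 0.59.

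The same list moved less under DMSO. There 12 of the 28 rose (9.78% of all genes tested did) and 1 fell, with a median of 0.19. The difference between treatments was tested gene by gene, and 18 of the 28 had a more positive genotype difference under CB-103 (10.3% of all genes tested) and 1, CDC6, a more negative one (4.34%). RRM2 stood at 275, 258 and 258 CPM in KO DMSO and at 243, 254 and 198 CPM in NT DMSO. There the groups did not overlap, but the difference was not called (0.19).

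E2F factors drive many of these genes from promoters, and 4 promoters are printed to show where their letters lie. The E2F strings TTTCGCGC and TTTGGCGC were searched on both strands in RefSeq windows of build GRCh38.p14 that run from 250 bases before a start site to 50 after it. At least 1 window with a match was found for 10 of 24 list genes that had a window (41.7%) and for 279 of 11624 genes tested that had a window (2.40%). The list was gathered by known function, so its higher share is no result of these data. A match is a description of letters and not a bound site. The windows of UHRF1 at chr19:4909894-4910193 on the plus strand, MCM2 at chr3:127598161-127598460 on the plus strand, E2F2 at chr1:23531184-23531483 on the minus strand and CDC6 at chr17:40287629-40287928 on the plus strand follow, with matches in capitals on either strand; UHRF1 has 3 windows, and the 1 with a match is given. UHRF1, MCM2 and E2F2 rose and CDC6 fell, so the letters occurred in genes of both directions.
UHRF1: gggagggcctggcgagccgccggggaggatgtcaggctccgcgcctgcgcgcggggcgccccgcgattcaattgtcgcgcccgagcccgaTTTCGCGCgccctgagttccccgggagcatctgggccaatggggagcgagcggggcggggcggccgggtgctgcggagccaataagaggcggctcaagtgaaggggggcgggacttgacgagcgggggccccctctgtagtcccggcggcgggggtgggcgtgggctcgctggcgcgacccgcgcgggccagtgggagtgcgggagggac
MCM2: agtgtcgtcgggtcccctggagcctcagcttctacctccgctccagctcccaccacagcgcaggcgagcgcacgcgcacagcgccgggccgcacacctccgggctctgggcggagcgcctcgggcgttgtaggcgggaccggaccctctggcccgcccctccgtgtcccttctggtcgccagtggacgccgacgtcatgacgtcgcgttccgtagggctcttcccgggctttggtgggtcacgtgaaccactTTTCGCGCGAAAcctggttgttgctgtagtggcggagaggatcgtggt
E2F2: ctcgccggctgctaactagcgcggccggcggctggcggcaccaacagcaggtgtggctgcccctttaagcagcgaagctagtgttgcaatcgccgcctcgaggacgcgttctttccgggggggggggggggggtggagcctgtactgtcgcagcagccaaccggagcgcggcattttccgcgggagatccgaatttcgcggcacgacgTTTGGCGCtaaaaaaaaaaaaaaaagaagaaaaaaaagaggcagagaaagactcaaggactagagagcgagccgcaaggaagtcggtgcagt
CDC6: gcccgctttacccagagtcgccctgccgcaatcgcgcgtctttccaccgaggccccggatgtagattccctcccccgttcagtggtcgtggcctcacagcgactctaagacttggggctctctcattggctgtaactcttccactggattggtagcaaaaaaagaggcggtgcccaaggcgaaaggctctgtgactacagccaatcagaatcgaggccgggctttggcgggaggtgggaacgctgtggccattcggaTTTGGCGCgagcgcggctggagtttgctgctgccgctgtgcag

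Other cell cycle genes rose too, by smaller amounts. Of 24 genes of G2/M and mitosis, 18 rose (75.0%) and 2 fell (8.33%), beside 20.4% and 16.5% of all genes tested, with a median of 0.23. NUSAP1, a spindle protein, stood at 179, 196 and 202 CPM in KO CB-103 and at 132, 127 and 128 CPM in NT CB-103. The kinetochore motor CENPE fell by 0.43 ± 0.08, and CDC20, the activator of the anaphase-promoting complex, fell by 0.13. Of 10 G1 cyclins, kinases and inhibitors tested, 7 rose (70.0%) and RB1 fell (10.0%). CCND3, the D-type cyclin needed by developing T cells, stood at 212, 191 and 202 CPM in KO CB-103 and at 168, 146 and 130 CPM in NT CB-103 (0.44 ± 0.07, adjusted p = 0.00013). Under DMSO the order was the opposite, with 677, 609 and 621 CPM in KO and 920, 935 and 925 CPM in NT cells (-0.54). The inhibitors CDKN2D (0.88 ± 0.07) and CDKN1A (0.67 ± 0.22) rose alongside CDK4 (0.50 ± 0.12), but CDKN1A lost the call when replicate 1 or 2 of NT (0.58 and 0.65) or replicate 1 or 3 of KO (0.55 and 0.61) was left out. RB1, the retinoblastoma gene, was called lower (-0.51 ± 0.06) and had the opposite sign with plain sums of the transcript estimates (0.12, adjusted p = 0.073).

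Chaperones of the endoplasmic reticulum (ER) were lower in KO cells under CB-103. Of 21 genes of ER folding and the unfolded protein response, 17 fell (81.0%, against 16.5% of all genes tested) and 1 rose, with a median of -0.45. Their sum was 14000 to 16100 CPM in the KO CB-103 libraries and 19300 to 21100 CPM in the NT CB-103 libraries. PDIA4 (chr7:149003062-149028641), a disulfide isomerase, stood at 1009, 878 and 946 CPM in KO CB-103 and at 1969, 1754 and 1927 CPM in NT CB-103 (-1.0 ± 0.06, adjusted p = 2.2e-09). CRELD2, a secreted protein induced by misfolding, stood at 71.1, 60.5 and 67.9 CPM in KO CB-103 against 122, 117 and 123 CPM in NT CB-103 (-0.86 ± 0.08). DNAJB9, a cochaperone of BiP, stood at 121, 124 and 118 CPM in KO CB-103 and at 210, 201 and 233 CPM in NT CB-103. None of these groups overlapped, which is no result because the genes were named for the size of their called fall. SEL1L, which anchors the ligase that removes misfolded proteins, fell by 0.92 ± 0.06, and the chaperones HSP90B1 and CALR by 0.59 and 0.37. HSPA5, which encodes BiP, averaged 2870 ± 328 CPM in KO CB-103 and 3570 ± 260 CPM in NT CB-103 (SD, n = 3 each) and fell by 0.31. The transcription factor XBP1 fell by 0.41, while PPP1R15A, a phosphatase subunit that restores translation, rose by 0.26. The sensor ATF6 (-0.03), EDEM1 (0.04) and CANX (0.06) were not called.

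Under DMSO these genes were far lower in both genotypes and differed less between them. Their sum was 3920 to 4140 CPM in KO DMSO and 4030 to 4280 CPM in NT DMSO. Of the 21, 2 were called higher and 4 lower, beside 9.78% and 11.7% of all genes tested, with a median of 0.00. PDIA4 stood at 178, 165 and 171 CPM in KO DMSO and at 207, 198 and 186 CPM in NT DMSO. For 14 of the 21 genes the genotype difference was more negative under CB-103, against 4.34% of all genes tested, and for 0 it was more positive (10.3%). Under GSI 5 were called higher and 4 lower, beside 18.8% and 15.0% of all genes tested, with a median of 0.00.

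The ER stress element, CCAAT and CCACG with 9 bases of any kind between them, which ATF6 and NF-Y bind, was searched in the same windows on both strands. It was found for 7 of 21 list genes with a window (33.3%) and for 15 of 11624 genes tested with a window (0.129%). The list was gathered by known function in this response, so its higher share is no result of these data. The 7 were HSPA5, HSP90B1, CALR, CRELD2, PDIA6 and XBP1, all called lower, and CANX, not called. List genes without a match were called lower too, among them PDIA4 (-1.0), SEL1L (-0.92) and DNAJB9 (-0.83). Also without a match, EDEM1 and ATF6 were not called and PPP1R15A rose. The fall was thus not confined to genes with the element, and a match is not a bound site. Windows of HSPA5 at chr9:125241294-125241593 on the minus strand, HSP90B1 at chr12:103930160-103930459 on the plus strand, CALR at chr19:12938359-12938658 on the plus strand and CRELD2 at chr22:49918384-49918683 on the plus strand are printed to show the element, in capitals, with HSP90B1 holding 2 copies.
HSPA5: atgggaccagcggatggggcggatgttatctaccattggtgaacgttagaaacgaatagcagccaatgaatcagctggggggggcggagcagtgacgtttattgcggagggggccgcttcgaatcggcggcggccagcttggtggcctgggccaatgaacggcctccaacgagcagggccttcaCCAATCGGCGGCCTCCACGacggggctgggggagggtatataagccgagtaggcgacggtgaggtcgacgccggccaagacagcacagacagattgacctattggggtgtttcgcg
HSP90B1: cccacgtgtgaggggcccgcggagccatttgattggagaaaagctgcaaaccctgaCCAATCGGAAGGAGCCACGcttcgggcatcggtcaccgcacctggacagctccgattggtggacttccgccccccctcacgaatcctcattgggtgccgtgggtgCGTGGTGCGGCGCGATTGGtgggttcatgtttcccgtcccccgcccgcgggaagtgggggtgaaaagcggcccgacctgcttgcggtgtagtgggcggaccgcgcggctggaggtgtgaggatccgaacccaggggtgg
CALR: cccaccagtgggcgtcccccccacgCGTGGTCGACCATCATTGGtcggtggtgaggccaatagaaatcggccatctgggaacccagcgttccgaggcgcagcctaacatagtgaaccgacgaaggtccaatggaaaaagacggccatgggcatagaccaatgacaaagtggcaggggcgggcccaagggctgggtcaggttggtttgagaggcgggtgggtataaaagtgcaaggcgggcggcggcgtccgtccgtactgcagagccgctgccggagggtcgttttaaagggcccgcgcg
CRELD2: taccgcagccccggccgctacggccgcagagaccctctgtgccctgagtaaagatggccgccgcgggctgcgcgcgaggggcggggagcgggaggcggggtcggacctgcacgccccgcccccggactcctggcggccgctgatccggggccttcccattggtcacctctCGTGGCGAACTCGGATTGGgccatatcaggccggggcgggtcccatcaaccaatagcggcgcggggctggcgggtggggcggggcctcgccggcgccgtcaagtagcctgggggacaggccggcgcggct

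Genes of the amino acid response, which the factor ATF4 controls, did not follow the ER genes. Of 26 tested, 13 rose (50%, against 20.4% of all genes tested) and 5 fell (19.2%, near the 16.5% of all genes tested), with a median of 0.20. ATF4 itself stood at 864, 804 and 876 CPM in KO CB-103 and at 605, 573 and 581 CPM in NT CB-103 (0.53 ± 0.04). DDIT3, a stress-induced factor that acts with ATF4, stood at 195, 193 and 218 CPM in KO CB-103 against 275, 274 and 306 CPM in NT CB-103 (-0.50 ± 0.06). SLC3A2, the heavy chain of amino acid transporters, fell by 0.60 and PYCR1 by 0.28, beside ASNS and TRIB3. PSAT1 (0.47), SHMT2 (0.39) and MTHFD2 (0.43), enzymes of serine and one-carbon metabolism, rose. Cytosolic and mitochondrial chaperones rose for 9 of 14 (64.3%) and fell for 1 (7.14%). The constitutive chaperone HSPA8 stood at 3324, 2663 and 3039 CPM in KO CB-103 and at 2114, 1881 and 2059 CPM in NT CB-103 (0.58 ± 0.09), and CHORDC1, a partner of HSP90, fell by 0.61.

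T-cell receptor and thymocyte genes were called higher more than lower in KO cells under CB-103. Of 28 tested, 16 rose (57.1%, against 20.4% of all genes tested) and CD38 fell (3.57%, against 16.5%), with a median of 0.59. CCR9, the chemokine receptor of thymocytes, stood at 40.5, 35.6 and 36.1 CPM in KO CB-103 and at 12.9, 10.7 and 9.99 CPM in NT CB-103 (1.73 ± 0.08, adjusted p = 1.2e-10). LAT, the adaptor of the T-cell receptor, stood at 25.7, 24.8 and 27.0 CPM in KO CB-103 against 9.78, 10.4 and 10.4 CPM in NT CB-103. CCR9 and LAT were each more than 2-fold higher. They were named for the size of their called rise, so the lack of overlap between their groups is no result. CD2 rose by 1.25 ± 0.24, DNTT, the polymerase that adds bases to receptor joints, by 0.47 and CXCR4 by 0.70. The receptor chains CD3E (0.00), CD3G (0.13) and CD247 (-0.03) and the kinase LCK (0.09) were not called. In bulk RNA, more cells with a marker and more RNA per cell cannot be told apart.

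Most markers of other lineages were at low levels, with CD68, EPOR and PECAM1 as the higher ones, and some moved with genotype. The 9 B-cell markers summed to 10.5 to 13.6 CPM in KO CB-103 and to 4.02 to 4.78 CPM in NT CB-103, and CD79A, CD79B and IGLL1 rose. IGLL1, the surrogate light chain, stood at 7.46, 9.77 and 8.37 CPM in KO CB-103 against 1.92, 2.29 and 1.84 CPM in NT CB-103. The 14 myeloid markers summed to 34.7 to 41.8 CPM in KO CB-103 and 15.6 to 17.7 CPM in NT CB-103. CD68, a lysosomal protein, averaged 34.8 CPM in KO CB-103 and 14.3 CPM in NT CB-103, while ELANE, S100A8, CEBPA and FCGR3A were at 0 in all 6 libraries. The 12 markers of adherent cells summed to 114 to 134 CPM in KO CB-103 and 79.4 to 86.0 CPM in NT CB-103, of which PECAM1 averaged 117 CPM in KO CB-103 and 76.2 CPM in NT CB-103. The 11 erythroid and megakaryocytic markers summed to 18.1 to 20.1 CPM in KO CB-103 and 19.6 to 22.0 CPM in NT CB-103, nearly all of it EPOR. The part of these markers in the other results was not tested.

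Transcription factors of T-ALL rose for 12 of 18 (66.7%, against 20.4% of all genes tested) and fell for 2 (11.1%, against 16.5%). LEF1 stood at 320, 289 and 288 CPM in KO CB-103 and at 197, 164 and 147 CPM in NT CB-103 (0.82 ± 0.09). RUNX1 (0.41), MYB (0.30), IKZF1 (0.30), ERG (0.48) and TAL1 (0.44) also rose. LMO1, which a translocation places beside a T-cell receptor locus in this line, stood at 22.1, 22.6 and 21.9 CPM in KO CB-103 and at 39.5, 38.2 and 45.2 CPM in NT CB-103 (-0.88 ± 0.06). NKX2-1, a homeobox factor, fell by 0.65 ± 0.10. Both falls were seen as well under DMSO (-0.70 and -0.78) and GSI (-0.72 and -0.71), whereas under DMSO 2 of the 18 rose (9.78% of all genes tested) and 6 fell (11.7%).

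Energy metabolism differed between genes of the nucleus and of the mitochondrion. Nuclear genes of the respiratory chain rose for 24 of 30 (80.0%, against 20.4% of all genes tested) and fell for 3 (10.0%), with a median of 0.27. The 13 mitochondrially encoded genes fell for 12 (92.3%, against 16.5% of all genes tested), rose for 0 and had a median of -1.07. ATP5MC1, a subunit of the ATP synthase rotor, stood at 38.0, 34.0 and 35.3 CPM in KO CB-103 and at 24.1, 22.1 and 21.2 CPM in NT CB-103 (0.67 ± 0.06). MT-ND1, a complex I subunit read from mitochondrial DNA, stood at 642, 870 and 720 CPM in KO CB-103 and at 2159, 1717 and 2142 CPM in NT CB-103 (-1.43 ± 0.27, adjusted p = 0.0004). MT-CO3 stood at 2295, 3063 and 2548 CPM in KO CB-103 against 7214, 5565 and 6536 CPM in NT CB-103. Neither pair of groups overlapped, which is no result because both genes were named for the size of their called fall. The exception among the 13 was MT-ND6 (-0.37, adjusted p = 0.406). The mitochondrial genes were also lower in KO cells under DMSO (12 of 13, against 11.7% of all genes tested, median -0.95). Under GSI 4 of the 13 were called lower (against 15.0%) and 9 were not called (median -0.62). Under DMSO the nuclear genes rose for 0 of 30 and fell for 3, beside 9.78% and 11.7% of all genes tested. Their rise was seen under GSI as well, for 22 of 30 (against 18.8%), with 2 falls (against 15.0%) and a median of 0.21. Under CB-103 minus DMSO, 17 of the 30 nuclear genes were more positive (10.3% of all genes tested), and of the 13 mitochondrial genes 0 differed past the threshold in either direction.

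Glycolysis and glucose transport rose for 15 of 23 (65.2%, against 20.4% of all genes tested) and LDHA fell (4.35%, against 16.5%), with a median of 0.29. PGK1, a kinase of lower glycolysis, stood at 606, 545 and 581 CPM in KO CB-103 and at 416, 350 and 376 CPM in NT CB-103 (0.60 ± 0.08). ALDOA (0.46), PGAM1 (0.45), PKM (0.44) and GAPDH (0.42) rose, and the transporters SLC2A1 (-0.11) and SLC2A3 (0.06) were not called. Under DMSO none of the 23 rose and 5 fell, beside 9.78% and 11.7% of all genes tested. Cytosolic ribosomal proteins rose for 18 of 38 (47.4%) and fell for 0, by at most 0.41 (RPL24), while ribosome biogenesis rose for 3 (10.0%) and fell for 8 (26.7%) of 30. Cholesterol genes rose for 2 (10.0%) and fell for 6 (30.0%) of 20, HSD17B7 most among those above 5 CPM (-0.58). FADS1 and FADS2, desaturases of polyunsaturated fatty acids, fell by 0.57 and 0.42 in a list of 10 fatty acid genes in which 2 rose (20%, near all genes tested) and 3 fell (30.0%). Lysosome and autophagy genes rose for 14 (50%) and fell for 2 (7.14%) of 28; one that rose was the saposin precursor PSAP, with 2871, 2491 and 2697 CPM in KO CB-103 and 1939, 1719 and 1682 CPM in NT CB-103. PRDX1, a peroxidase of the NRF2 list, in which 6 of 14 rose (42.9%) and 1 fell (7.14%), stood at 381, 369 and 399 CPM in KO CB-103 and 249, 227 and 223 CPM in NT CB-103. Splicing factors rose for 12 (37.5%) and fell for 6 (18.8%, near the 16.5% of all genes tested) of 32; the Sm proteins SNRPE (0.65), SNRPF (0.57) and SNRPD2 (0.56) rose, and the regulators TRA2A (-0.51) and SRSF6 (-0.44) fell.

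Members of the BCL2 family, which set the threshold of apoptosis, rose for 7 of 14 (50%, against 20.4% of all genes tested) and fell for 1 (7.14%, against 16.5%). BCL2, an inhibitor of apoptosis, stood at 13.5, 10.2 and 11.9 CPM in KO CB-103 and at 5.87, 4.78 and 5.62 CPM in NT CB-103 (1.12 ± 0.10). BID, which promotes apoptosis, stood at 35.7, 41.0 and 38.7 CPM in KO CB-103 against 17.5, 15.5 and 15.9 CPM in NT CB-103 (1.24 ± 0.08). BCL2L11, another promoter of apoptosis, rose by 0.71 ± 0.16, so members of both kinds were higher. Of 18 p53 targets, 7 rose (38.9%) and 4 fell (22.2%), with the death receptors FAS (1.10) and TNFRSF10B (0.59) among the rises. The chemokine CXCL8 stood at 90.1, 87.0 and 104 CPM in KO CB-103 and at 22.1, 18.4 and 26.7 CPM in NT CB-103 (2.07 ± 0.17) in a list of 14 NF-kB and chemokine genes in which 5 rose (35.7%) and 2 fell (14.3%), TNFAIP3 among the falls (-0.36). Cytokine receptors and JAK-STAT genes rose for 8 (33.3%) and fell for 5 (20.8%) of 24. IL2RB, a receptor chain for interleukins 2 and 15, stood at 7.25, 5.28 and 7.16 CPM in KO CB-103 and at 2.23, 2.29 and 1.95 CPM in NT CB-103. Interferon genes rose for 10 (45.5%) and fell for 2 (9.09%) of 22, with IFIT3 at 1.20, IFI6 at 1.03 and OAS3 at 0.83. Of 15 genes of MHC class I and antigen presentation, 6 rose (40.0%) and 2 fell (13.3%), HLA-B by 0.47. MAPK feedback genes rose for 5 of 14 (35.7%) and fell for 0. ETV5, a factor switched on by ERK, stood at 3.39, 3.43 and 3.77 CPM in KO CB-103 and at 0.431, 0.573 and 0.437 CPM in NT CB-103 (2.88 ± 0.17), and the phosphatase DUSP6, another such target, was not called (-0.26).

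**Figure D3:**
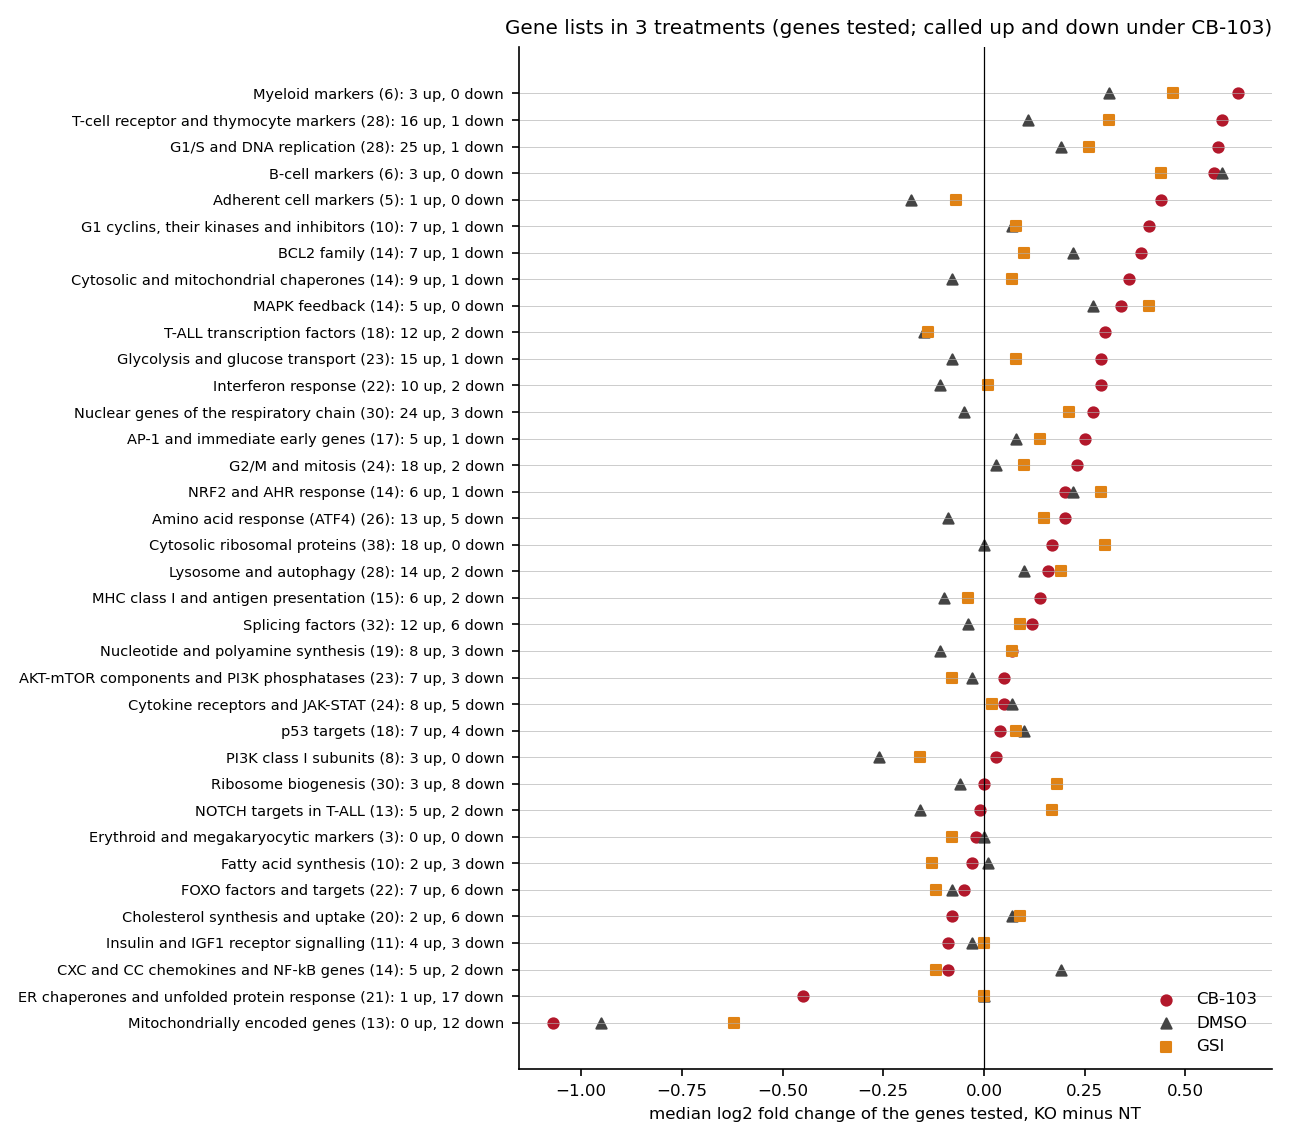
For each gene list, the median log2 fold change, KO minus NT, of its genes tested is shown under CB-103 (circles), DMSO (triangles) and GSI (squares), with the number of genes tested and of those called higher and lower under CB-103 beside the name. The ER list lies at -0.45 under CB-103 and at 0.00 under DMSO and GSI, the G1/S list at 0.58, 0.19 and 0.26, and the mitochondrially encoded genes at -1.07, -0.95 and -0.62.

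Among the genes of PI3K itself, differences past the threshold in the main fit under CB-103 were all rises. Of 8 class I subunits tested, 3 rose (37.5%, against 20.4% of all genes tested) and 0 fell (16.5%). Under DMSO 1 rose and 5 fell, beside 9.78% and 11.7% of all genes tested. With GSI 2 rose and 3 fell, beside 18.8% and 15.0%. PIK3CG, the catalytic subunit p110-gamma, stood at 20.1, 15.1 and 16.9 CPM in KO CB-103 and at 8.56, 8.76 and 9 CPM in NT CB-103 (0.99 ± 0.10, adjusted p = 4.2e-07). PIK3CD, the catalytic subunit p110-delta of lymphocytes, stood at 89.7, 80.3 and 90.1 CPM in KO CB-103 against 76.5, 77.9 and 73.3 CPM in NT CB-103, without overlap and with a rise of 0.19. It was called lower in KO cells under DMSO (-0.28) and GSI (-0.22). PIK3R6, a partner of p110-gamma, averaged 0.746 CPM in KO CB-103 and 0.247 CPM in NT CB-103. The other regulatory subunits PIK3R2 (-0.13 ± 0.10) and PIK3R3 (-0.08 ± 0.06), and the catalytic subunits PIK3CA (-0.12 ± 0.07) and PIK3CB (0.14 ± 0.06), were not called. PIK3R3 was called lower without replicate 3 of NT (-0.18). With plain sums of the transcript estimates PIK3R1 (-0.33) and PIK3CA (-0.17) were called lower.

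Downstream of PI3K, 7 of 23 components and phosphatases rose and 3 fell (13.0%), beside 20.4% and 16.5% of all genes tested. INPP5D, the lipid phosphatase SHIP1, stood at 78.3, 71.0 and 70.5 CPM in KO CB-103 and at 51.3, 49.8 and 44.9 CPM in NT CB-103 (0.59 ± 0.06). INPP4B, which removes another phosphate, was close to the threshold and at a very low level (-0.99 ± 0.37, adjusted p = 0.0449). It averaged 0.479 CPM in KO CB-103 and 0.95 CPM in NT CB-103. AKT1 rose by 0.21, and AKT2 was not called (0.09). TSC2 fell by 0.42, a call absent with plain sums of the transcript estimates (-0.01) and without replicate 1 of KO (-0.39, adjusted p = 0.05). Among 11 genes of insulin and IGF1 receptor signalling, 4 rose (36.4%) and 3 fell (27.3%). GRB10, an adaptor that inhibits the insulin receptor, stood at 50.1, 50.8 and 50.6 CPM in KO CB-103 and at 30.9, 29.9 and 28.8 CPM in NT CB-103. The adaptor GAB2, which binds p85, stood at 46.2, 37.6 and 38.2 CPM in KO CB-103 against 81.7, 75.5 and 73.6 CPM in NT CB-103. GRB10 and GAB2 differed in the same direction under DMSO (0.75 and -0.77) and GSI (1.01 and -0.83). IRS2 fell by 0.92, and IGF1R was not called (-0.04 ± 0.08). FOXO factors and their targets rose for 7 (31.8%) and fell for 6 (27.3%) of 22, with SESN3 (1.21) higher, IRS2 lower and CDKN1B not called (-0.07 ± 0.05).

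NOTCH targets moved in both directions. Of 13 tested, 5 rose (38.5%, against 20.4% of all genes tested) and 2 fell (15.4%, against 16.5%), with a median of -0.01, or 0.13 with plain sums of the transcript estimates. HES1, the classical target, stood at 14.4, 12.2 and 13.9 CPM in KO CB-103 and at 17.1, 13.8 and 16.1 CPM in NT CB-103, with overlap (-0.22 ± 0.09, adjusted p = 0.073). It was called with the replicate number as a block (-0.22, adjusted p = 0.044), without replicate 2 of NT (-0.32) and without replicate 1 of KO (-0.29). DTX1, a ubiquitin ligase of the pathway, stood at 18, 16.6 and 18.2 CPM in KO CB-103 and at 22.6, 24.9 and 27.9 CPM in NT CB-103 and fell by 0.51 ± 0.08. MYC stood at 27.6, 25.3 and 26.5 CPM in KO CB-103 and at 27.3, 25.6 and 27.0 CPM in NT CB-103 (-0.01 ± 0.07, adjusted p = 0.94). NOTCH1 rose by 0.30 ± 0.06, with 186, 191 and 181 CPM in KO CB-103 against 151, 157 and 146 CPM in NT CB-103, and NOTCH3 rose by 0.88 ± 0.17. The complement receptor CR2 (0.74) and the GTPase RHOU (0.66) rose. IL7R was near 0 in both groups, at most 0.828 CPM in a library. The sum over the list was 654 to 678 CPM in KO CB-103 and 553 to 565 CPM in NT CB-103, against 2060 to 2130 CPM in KO DMSO and 2050 to 2170 CPM in NT DMSO. Its gap under CB-103 lay mostly in RHOU (means of 182 CPM in KO and 115 CPM in NT) and NOTCH1 (186 and 151 CPM). The sum is therefore no measure of the list as a whole.

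Part of the genotype difference followed position on the chromosomes. Of 197 fixed intervals of 10 Mb that held at least 20 genes of at least 5 CPM, 18 had a median beyond 0.2 in the same direction in each of the 3 treatments. They were found from these values, so they are a description with no test. The intervals lay on 5 chromosomes. On chromosome 14, 6 intervals lying between 30 and 110 Mb held 432 genes tested, which had a median of -0.36 under CB-103, -0.39 under DMSO and -0.35 under GSI. The 3 intervals lying between 10 and 50 Mb of chromosome 11 had medians of -0.35, -0.39 and -0.39, and 3 between 100 and 150 Mb of chromosome 6 had -0.39, -0.39 and -0.37. Higher medians were found in 3 intervals between 20 and 50 Mb of chromosome 13 (0.34, 0.38 and 0.38) and in 3 between 210 and 250 Mb of chromosome 1 (0.27, 0.28 and 0.30). Over the whole of chromosome 14, 45.7% of 608 genes tested were called lower and 6.41% higher in KO CB-103.

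The intervals held 1001 genes tested, of which 556 were called. Without them, 5856 of 16345 genes were called under CB-103, 3356 higher and 2500 lower, with a median of 0.01. VASH1, NKX2-1, BATF and IFI27 lie in such intervals of chromosome 14, RB1 in those of chromosome 13, and RHOU, CENPF and DUSP10 in those of chromosome 1. The G1/S list kept a median of 0.56 and the ER list one of -0.45 without genes of these intervals. DNA copy number was not measured here, and whether the lines differ in it was not tested.

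**Figure D4:**
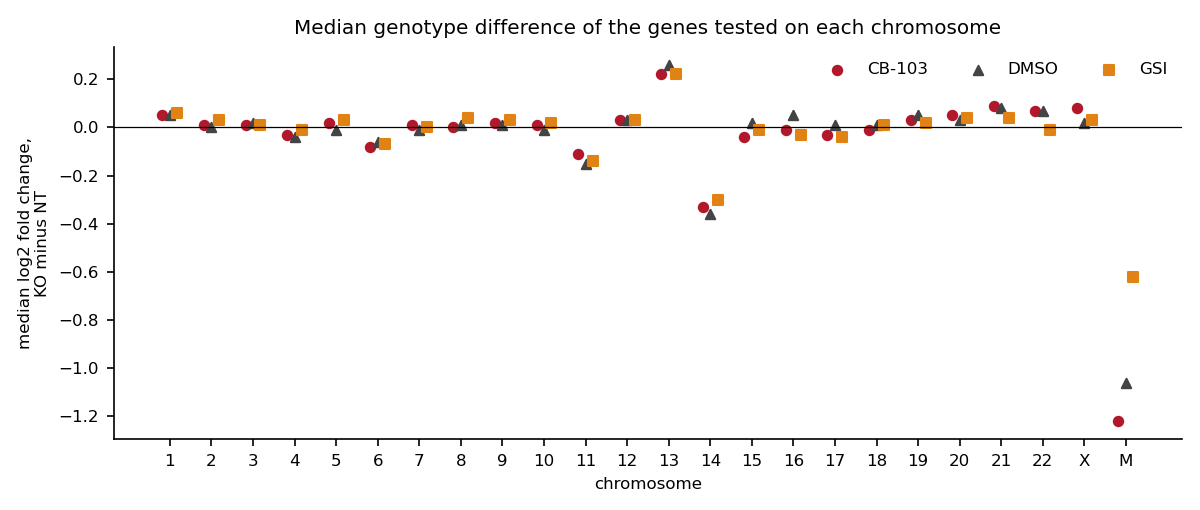
The median log2 fold change, KO minus NT, of the genes tested on each chromosome is plotted under CB-103 (circles), DMSO (triangles) and GSI (squares), with M for the mitochondrial genome. Chromosome 14 lies at -0.33, -0.36 and -0.30 and chromosome 13 at 0.22, 0.26 and 0.22, while the mitochondrial genome lies at -1.22, -1.06 and -0.62.

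The genotype difference under CB-103 was next set against that under DMSO, which rests on other libraries. Under DMSO 3720 genes were called (21.4%), 1697 higher and 2023 lower in KO cells. Of the 6412 genes called under CB-103, 2265 were called in the same direction under DMSO, which is 35.3% of the CB-103 genes and 60.9% of the DMSO genes, and 173 in the opposite direction. The difference between the contrasts was called for 2533 genes (14.6%), with 1780 more positive under CB-103 (10.3%) and 753 more negative (4.34%). Of the 1780, 1377 were called higher and 60 lower in KO cells under CB-103, and of the 753, 550 were called lower and 33 higher. Across the 10596 genes of at least 5 CPM the log2 fold changes under CB-103 and DMSO had a Pearson correlation of 0.669, and across all 17346 genes tested it was 0.494, which in both cases is across genes that share libraries within each contrast and is given as a description.

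Among genes of appreciable level, MEOX1, a homeobox factor, had the most positive difference between contrasts. It stood at 1.05, 1.29 and 1.32 CPM in KO CB-103 and at 0.815, 0.669 and 0.991 CPM in NT CB-103, and at 2.55, 3.84 and 3.47 CPM in KO DMSO and 11.5, 15.1 and 14 CPM in NT DMSO (difference 2.60 ± 0.31, adjusted p = 3.6e-05). MEOX1 was not called under CB-103, so its difference came with the gap under DMSO. KRT1, a keratin, behaved otherwise, at 3.08 under CB-103 and 0.86 under DMSO. TAC3, a neuropeptide gene, stood at 6.20, 7.42 and 8.08 CPM in KO CB-103 and at 1.77, 1.24 and 1.37 CPM in NT CB-103 (2.29 ± 0.14), against 0.43 under DMSO. DAB2IP, a RAS GTPase activator, was 3.61 higher under CB-103 and 1.62 higher under DMSO. Its level was low, with means of 2.77 CPM in KO CB-103 and 0.223 CPM in NT CB-103. Negative differences included SLC4A4, a bicarbonate transporter, with 7.61, 6.25 and 7.48 CPM in KO CB-103 and 6.86, 8 and 8.01 CPM in NT CB-103, and with 0.974, 0.667 and 0.861 CPM in KO DMSO and 0.164, 0.154 and 0.376 CPM in NT DMSO. The cytokine receptor IL21R, which overlapped under CB-103 at 12.8, 13.3 and 14.3 CPM in KO and 15.6, 13.3 and 13.5 CPM in NT cells, was 1.46 higher in KO cells under DMSO. Its DMSO means were low, at 1.43 CPM in KO and 0.516 CPM in NT cells. MAPRE3, a microtubule end-binding protein, was higher in KO cells under both, by 0.69 under CB-103 and 2.13 under DMSO.

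**Figure D5:**
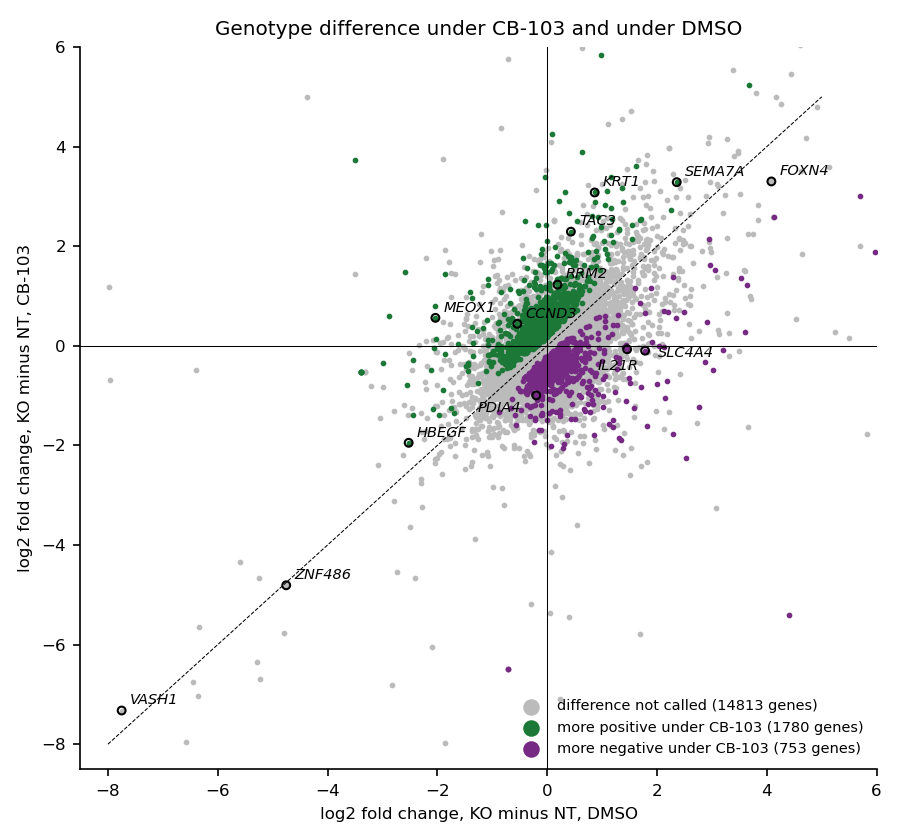
Each point is a gene tested, with its log2 fold change, KO minus NT, under DMSO on the horizontal axis and under CB-103 on the vertical axis; the dashed line marks equality and 18 genes lie outside the axes. Green points (1780 genes) had a more positive and purple points (753 genes) a more negative genotype difference under CB-103, and VASH1 and ZNF486 lie near the line while MEOX1 and SLC4A4 lie off it.

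Under GSI, again from other libraries, 5861 genes were called between the genotypes (33.8%), 3255 higher (18.8%) and 2606 lower (15.0%) in KO cells. Of the genes called under CB-103, 3374 were called in the same direction under GSI (52.6% of the CB-103 genes and 57.6% of the GSI genes) and 233 in the opposite one. In all 3 treatments 1854 genes were called in the same direction, 985 higher and 869 lower. CD7 stood at 8.94, 9.22 and 8.31 CPM in KO GSI and at 1.68, 2.73 and 2.88 CPM in NT GSI, and SEMA7A at 34.2, 35.0 and 31.2 CPM in KO GSI and 4.66, 5.12 and 3.61 CPM in NT GSI. Of the 28 G1/S genes, 19 were called higher and 2 lower in KO cells under GSI, with a median of 0.26. RRM2 was not among the 19, at 246, 230 and 228 CPM in KO GSI against 273, 288 and 252 CPM in NT GSI (-0.21, not called). The difference between the CB-103 and GSI contrasts was not tested. The 3 NT GSI libraries varied in their mitochondrial share, between 1.90% and 5.51%, and those of KO GSI between 2.40% and 2.57%.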

How the data were processed

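Messenger RNA was measured in 18 libraries in 6 groups of 3, made with a stranded polyA protocol and read in pairs of 75 nucleotides, per the labels' protocols. The aligner HISAT2 (2.2.1) and the quantifier Salmon (1.4.0) are listed, per the submitters' processing notes, beside bcl2fastq (2.20), FastQC (0.11.9) and hg38; their roles and settings are not stated. The authors deposited estimated counts per gene, rounded to whole numbers, and, per the file headers, estimated counts and TPM values per transcript for each library. How genes were summed from transcripts is not given in the sources used here. Library totals lay within 450 reads of the sums over transcripts. TPM values were used for PIK3R1 transcripts only, and a deposited table of variance-stabilised log2 values was not used here. Coordinates are those of GENCODE release 29 on hg38, and promoter sequences are from RefSeq.

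Genes passing filterByExpr of edgeR 4.0.16 by group (17346) were scaled by TMM and fitted with the quasi-likelihood test, 1 mean per group over all 18 libraries (12 residual degrees of freedom), with Benjamini-Hochberg adjustment over all genes tested. The fit was also run on simulated counts in which set changes were given to some genes in KO CB-103 alone. The simulation held no replicate effect and no regional shift, so it cannot speak to those features of these libraries. CPM values are scaled by TMM. SE is the size of the log2 fold change divided by the square root of F. Taken over the 12015 to 12436 genes compared per pair of libraries, counting error was small beside the spread between libraries. This was not shown for genes with few reads. No 2 libraries of a group agreed within sampling noise (chi-square per degree of freedom 5.09 to 67.1).

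Named genes were 16 fixed genes, the 12 largest rises and falls, the 6 largest differences between contrasts each way, and up to 4 called members of each of 36 lists averaging at least 1 CPM. The members, lists and rule were chosen with earlier results of these data known. List genes without a value did not pass the filter, and 643 of 732 were tested. Genes named outside this rule are list members given by their values and were chosen after those were seen. Some genes are not reported here.

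Replicate numbers come from the labels. Deviations of same-numbered KO and NT CB-103 libraries correlated at 0.649, 0.196 and 0.303, all over 0.1. The main fit left the replicate number out. A fit with the number as a block was an alternative and called 7126 genes under CB-103, against 6412. Replicate 1 alone stood apart, since KO replicate 2 with NT replicate 3 (0.294) and KO replicate 3 with NT replicate 2 (0.266) correlated about as well. A pairing of replicates 2 and 3 by number is therefore not shown. Alternatives were the replicate block, DESeq2 1.42.0 size factors and its Wald test, limma 3.58.1 (voom), no count filter, only the groups compared, plain transcript sums, each library left out, and replicates 2 and 3 alone. Counts without genes of the shifted intervals were added after seeing the data.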

Additional observations from a re-analysis of the deposited data

Results flagged for a closer look

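The genotype difference under CB-103 minus that under DMSO, on the log2 scale, was called at an edgeR adjusted p under 0.05 for 94 of the 169 named genes, against 14.6% of all genes tested, and those reported are given here because of that difference. The named genes were chosen mostly for their calls under CB-103, so their share is not to be read against that background. Positive values mean that KO minus NT was more positive under CB-103. No explanation of any of them was tested.

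Among PI3K, AKT and NOTCH genes the differences were 0.81 for PIK3R1, 0.33 for PIK3R3, 0.48 for PIK3CD, 0.87 for PIK3CG, 0.57 for INPP5D, 0.43 for DDIT4, 0.60 for DTX1, 0.58 for NOTCH1, 0.73 for CR2 and 0.39 for RHOU. Among the genes with the largest rises and falls under CB-103 they were 0.93 for SEMA7A, 2.21 for KRT1, 1.60 for CD48, 0.46 for RHEX, 1.66 for SPRED2, 1.37 for NECTIN1, 0.84 for TLE1, 0.58 for HBEGF, -1.68 for MDGA1 and -1.02 for WWC2. Genes chosen for the difference itself had 2.60 (MEOX1), 2.17 (AHNAK), 2.17 (SNORD3A), 1.99 (DAB2IP), 1.86 (TAC3), -1.91 (LOXL2), -1.88 (SLC4A4), -1.53 (IL21R), -1.47 (WIPI1) and -1.44 (MAPRE3). SNORD3A is a small nucleolar RNA, which a library selected on polyA captures poorly, and its call under CB-103 was absent (-0.28).

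Stress genes gave -0.80 for PDIA4, -0.42 for SEL1L, -0.97 for CRELD2, -0.56 for DNAJB9, -0.38 for SLC3A2, 0.49 for ATF4, -0.33 for DDIT3, 0.83 for HSPA8, 0.31 for DNAJB1 and 0.42 for HSP90AB1. Cell cycle and survival genes gave 1.04 for RRM2, 0.94 for UHRF1, 0.87 for TK1, 0.71 for CCNE2, 0.37 for NUSAP1, 0.99 for CCND3, 0.63 for CDKN2D, -1.11 for CDKN1A, 0.93 for RB1, 0.82 for BID, 0.92 for BCL2 and 0.45 for ZMAT3. Metabolic genes gave -0.80 for HSD17B7, 0.71 for PGK1, 0.54 for ALDOA, 0.44 for PGAM1, 0.51 for NME1, 0.37 for CTPS1, 0.68 for SMS, 1.11 for PRDX1, 0.34 for TXNRD1, 0.28 for FTL, 0.61 for ATP5MC1 and 0.53 for COX7C.

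Immune, signalling and lineage genes gave 1.20 for CCR9, 0.53 for LEF1, 1.5 for ETV5, 0.87 for DUSP5, 0.58 for CD83, -0.52 for TNFAIP3, 1.01 for IL6R, 0.72 for IL2RB, 1.33 for IFIT3, 0.64 for IFI6, 0.79 for OAS3, 1.05 for PSMB10, 0.34 for PSMB8, 2.02 for CD79B, 0.89 for IGLL1 and 0.80 for PECAM1. Lysosomal, ribosomal and splicing genes gave 1.53 for CD68, 0.37 for CTSB, 0.41 for PSAP, 0.48 for NPM1, -0.37 for GNL3, 0.39 for RPL24, 0.35 for RPL23, 0.36 for RPS9, 0.46 for SNRPE, 0.52 for SNRPF, 0.55 for SNRPD2 and -0.39 for TRA2A.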

How the results depend on the processing

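Counts of called genes stayed within 1.5 times of 6412 under CB-103, 3720 under DMSO, 5861 under GSI and 2533 for the difference in all settings run. With each library left out in turn they ranged from 5352 to 6141, 2944 to 3298, 4711 to 5840 and 1833 to 2751. The replicate block gave 7126, 4412, 6699 and 3373 calls, and among the named genes it changed a single call, HES1 (-0.22, adjusted p = 0.044). Under CB-103 the DESeq2 Wald test called 6332 genes, limma-voom 6483, the fit without a count filter 6049 and plain transcript sums 7518, with 6066, 6230, 5456 and 5927 of the 6412 genes called the same way. With DESeq2 size factors the median of all genes was 0.016, against -0.001.

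Over 169 named genes, 2328 values kept direction and call, 29 lost the call, 6 gained it and 1 reversed; 16 genes were involved. RB1 was the reversal, at 0.12 with plain sums of the transcript estimates (adjusted p = 0.073). Plain sums also ended the calls of MDGA1, TF, TSC2 and MVD (-0.30), and made calls of PIK3R1 and PIK3CA (-0.17). The cause was not tested. LOXL2 lost its call without any single CB-103 library (-1.10 to -0.84). Some single libraries also ended the calls of COX5B (0.39 without KO CB-103 replicate 2), CDKN1A, DDIT4, IFI27, UBE2C, PSMB8 and TSC2, and made calls of PIK3R3 and HES1. The medians of lists moved beyond the spread between libraries in 14 of 540 cases. Of these, 7 were in the 4 lists of other lineages, which hold few genes: B-cell markers (0.57) moved to 1.35 in the fit to the groups compared and 1.30 with replicates 2 and 3 alone, myeloid markers (0.63) to between 1.13 and 1.31, erythroid markers (-0.02) to 0.67 and adherent markers (0.44) to -0.04. The others were NOTCH targets (0.13 with plain sums), AKT-mTOR (0.00), p53 targets (0.14 and 0.15), interferon (0.22 and 0.36) and lysosome (0.21).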
